A study of Homo sapiens with 6 samples.

Results

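The COMMD family comprises COMMD1 to COMMD10, and all 10 genes were present among the 27192 genes of the count tables and had enough counts to be tested. The members were taken by name, and the family was chosen by the large fall of COMMD8 in these same libraries. The change of COMMD8 is therefore given as a description with no test, and the changes of the other 9 come from the same comparison. The 6 RNA libraries came from U87 cells, a human glioblastoma line that is long established in culture. The 3 libraries of the control group, siGL2 A, B and C, came from cells given the siRNA siGL2, which the labels call a nonspecific control, and the 3 libraries of the group siLINC00152 came from cells given 2 siRNAs together against the long noncoding RNA LINC00152. Both groups were transfected in 2 rounds 24 hours apart with the same lipid reagent and collected 24 hours after the last round, and untransfected cells were not analysed here. As the siRNAs against LINC00152 were used only in combination, effects of either siRNA alone cannot be told apart. The labels do not say that the letters stand for separate cultures, so p-values measure the spread between these libraries, which may be technical.

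COMMD proteins are small proteins that share a COMM domain near the carboxyl terminus, through which they bind each other. A copy of each member joins into a ring that, with the coiled-coil proteins CCDC22 and CCDC93, DENND10 and the Retriever subunits VPS35L, VPS26C and VPS29, forms the Commander complex on endosomes. Commander returns membrane proteins such as integrins from endosomes to the cell surface, with SNX17 as cargo adaptor and the WASH complex as the source of branched actin. COMMD1, the founding member, is also known for its part in copper export and for ending NF-kB signalling through ubiquitination of RELA. Loss of single subunits often lowers the protein level of others in the complex, a relation that RNA counts do not measure.

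Promoters of 9 of the 10 members were present in a table of RefSeq gene starts (GRCh38.p14, 250 bases before to 50 after each start). They are shown for a motif held by some of the members. The palindrome CACGTG is a core E-box that reads the same on both strands. It occurred in at least 1 listed promoter of 5 of these 9 members, against 12.3% of 10270 tested genes, counted the same way. Window by window, which is a different measure, it occurred in 9.1% of 15056 windows of tested genes and in 7.3% of all 35116 windows. COMMD8 was the only member with 2 copies in a window, 1 before and 1 after its start. The motif was picked after the members' promoters had been read, so the share is a description. Each line gives 30 bases, 5′ to 3′ on the strand of the gene, with the motif in capitals.
COMMD8, chr4:47463707-47463736, minus strand: gccggcgagagtCACGTGggcgagtcgtag
COMMD8, chr4:47463665-47463694, minus strand: ggccagccttgaCACGTGacccaagcccca
COMMD4, chr15:75336006-75336035, plus strand: gttagtccaagtCACGTGatcgtcgactca
COMMD9, chr11:36289443-36289472, minus strand: aacagcgacagcCACGTGacctcgcttccc
COMMD3, chr10:22316368-22316397, plus strand: cgcggcgcgtgtCACGTGgtgtgcgtgtcg
COMMD10, chr5:116085420-116085449, plus strand: gtgctgccgaatCACGTGgaacggtattcc
The holders included members that were lower after knockdown (COMMD4, COMMD8, COMMD10) and members that did not change past the threshold (COMMD3, COMMD9), as the values below show. COMMD1, COMMD2, COMMD6 and COMMD7 had no CACGTG in their listed windows. Of these, COMMD7 was lower after knockdown, COMMD1 and COMMD2 were higher, and COMMD6 missed the threshold.

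The libraries held 41963120 to 46234763 counts each, and the target RNA was low where the labels say it should be. LINC00152 stood at 14.98, 14.1 and 16.4 CPM (counts scaled to a common library size, per 1e6 counts after TMM scaling) in siGL2 A, B and C and at 2.78, 2.67 and 2.56 CPM in siLINC00152 A, B and C, so that 17.6% of the control level remained. Of its stretches of 75 bases, the length of a read, 20.7% occur in other genes, among them its paralog MIR4435-2HG. That paralog had means of 38.98 CPM in the controls and 37.7 CPM after knockdown (log2 −0.05 ± 0.05, SE, edgeR adjusted p = 0.429). VIM, CD44 and NES, which mark mesenchymal and glioma cells, were present in every library, NES at 30.1 to 39.1 CPM, and all 3 fell after knockdown (log2 −0.39 to −0.28, edgeR), whereas GFAP, S100B, SOX2 and OLIG2 were at 0.648 CPM or less. Of 12 markers of immune, endothelial, epithelial and neuronal cells, CD68, SNAP25 and SYT1 were at 9.81 CPM or more, and the other 9 were at 2.14 CPM or less, with CD3E at 0 throughout. SNAP25 went from 62.4 to 64.4 CPM in the controls to 41.5 to 44.8 CPM after knockdown, and the part of such shifts in the results was not tested. Among the controls, library A stood somewhat apart: chi-square per degree of freedom over genes was 8.92 against B and 11.1 against C, but 2.56 between B and C. Library A also had the lowest of the 3 siGL2 values in all 10 COMMD genes. The share of all tested genes with their lowest control value in A was not counted, so this is not read as a trait of the family. Results without library A are given below.

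COMMD8 was far lower after knockdown than any other member. The gene occupies bases 47450796 to 47463719 of chromosome 4 (hg38, minus strand), and its main transcript has 5 exons and encodes 183 amino acids. COMMD8 binds CCDC22, and with COMMD3 it is known to act on chemokine receptor signalling in lymphocytes. Its raw counts were 1600, 1911 and 2134 in siGL2 A, B and C and 318, 303 and 317 in siLINC00152 A, B and C. That is 36.9, 44.2 and 45.1 CPM against 7.74, 7.21 and 7.44 CPM. Every control library was thus far above every knockdown library, siGL2 A was the lowest control, and the knockdown libraries lay close together. The mean went from 42.1 ± 4.53 to 7.46 ± 0.267 CPM (SD, n = 3), a log2 fold change of −2.50 ± 0.08 (SE), which left 17.7% of the control level. Of 14078 genes tested, 20 had a log2 fold change as low as or lower than that of COMMD8, itself included. Without siGL2 A the log2 fold change was −2.58 ± 0.06 (SE). No annotated gene overlaps the exons of COMMD8, and none of its 75-base stretches, the length of a read, occurs in another annotated gene. As the libraries are bulk RNA, fewer cells with COMMD8 RNA and less COMMD8 RNA per cell cannot be told apart.

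**Figure D1:**
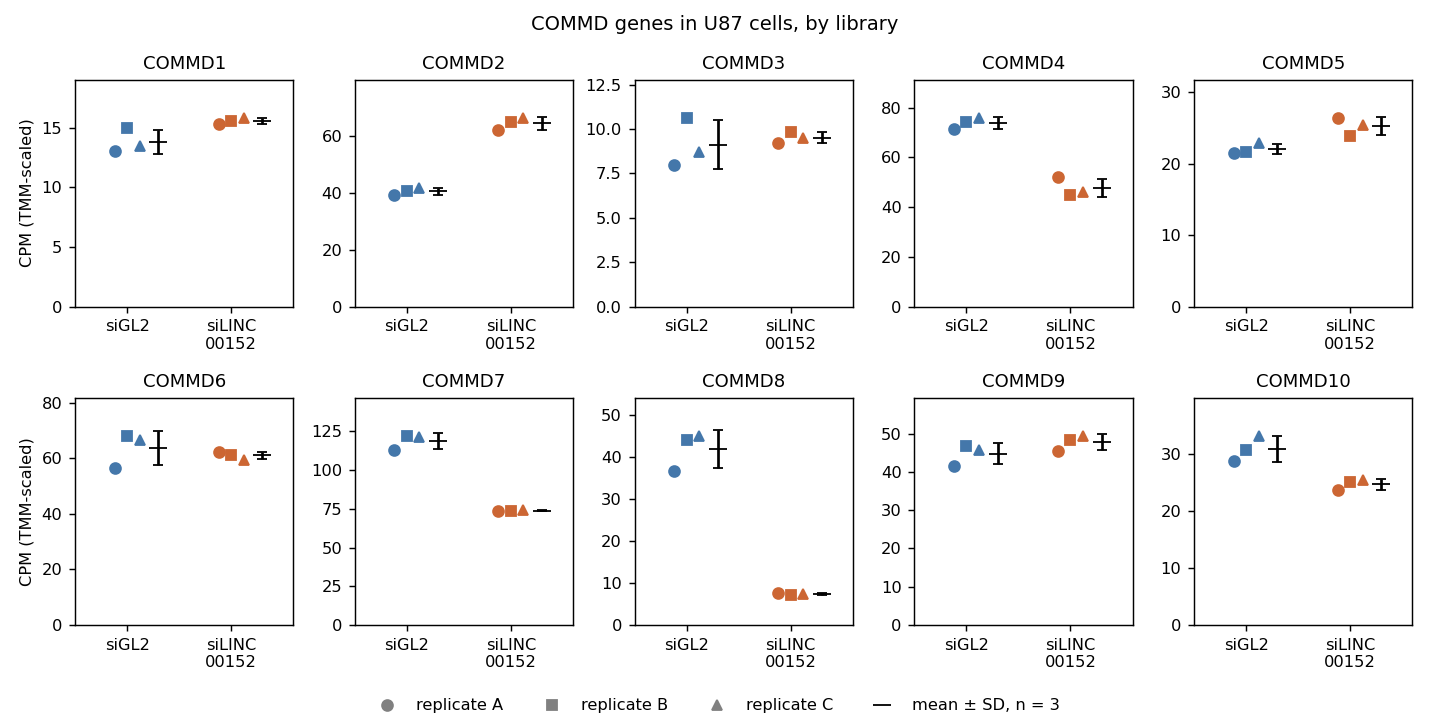
TMM-scaled CPM of each COMMD gene (vertical axis, starting at 0 with a scale of its own for each gene) in the 3 siGL2 libraries (blue) and the 3 siLINC00152 libraries (orange), with the mean ± SD beside them. COMMD8 went from 36.9 to 45.1 CPM in the controls to 7.21 to 7.74 CPM after knockdown, whereas COMMD3, COMMD6 and COMMD9 overlapped between the groups.

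The other 9 members were split evenly: 3 were higher, 3 lower and 3 missed the threshold of 0.05 (adjusted p from edgeR). Of all 14078 genes tested, 64.3% passed, 32.2% upward and 32.2% downward, so these counts are near the background and nothing is read from them. The median log2 fold change of the 9 was 0.06, beside −0.0011 over all genes tested. Scaled by library size without TMM, which moved the median over all tested genes to −0.0683, 1 was higher and 3 were lower. The changes were of ordinary size for this comparison in most members. COMMD7, COMMD2 and COMMD4 moved more than 84.1%, 83.7% and 81.9% of tested genes, and COMMD1, COMMD3, COMMD5, COMMD6 and COMMD9 moved more than at most 36.5%.

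COMMD7, COMMD4 and COMMD10 were lower after knockdown. COMMD7, which has been linked to NF-kB signalling, occupies bases 32702691 to 32743997 of chromosome 20 (minus strand). It stood at 113, 122 and 121 CPM in siGL2 A, B and C and at 73.5, 73.8 and 74.4 CPM in siLINC00152 A, B and C. The groups did not overlap, and the knockdown libraries differed by less than 1 CPM. COMMD7 fell by 0.68 ± 0.05 on the log2 scale (SE; edgeR adjusted p = 7.68e-11), to 62.3% of the control. FO393400.1, an annotated gene of the same strand, covers 27.2% of its exonic bases and 36.95% of the bases of its main transcript. Reads there could be given to either gene or to neither.

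COMMD4 is a gene of chromosome 15 (75335891 to 75343224, plus strand) whose protein, like that of the other members, carries the COMM domain. Its CPM values were 71.5, 74.3 and 76.1 in the control libraries and 52.0, 44.9 and 46.1 in the knockdown libraries. Library A was the highest of the knockdown group and still far under every control. COMMD4 fell by 0.63 ± 0.05 (log2, SE; edgeR adjusted p = 2.79e-09).

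COMMD10 spans the longest stretch of any member, 327772 bases of chromosome 5 (116084991 to 116412762, plus strand). It measured 28.8, 30.8 and 33.2 CPM in siGL2 A, B and C against 23.6, 25.1 and 25.5 CPM in siLINC00152 A, B and C. Every control was above every knockdown library, by the least for control A. COMMD10 fell by 0.32 ± 0.06 (log2, SE; edgeR adjusted p = 9.97e-05), and without siGL2 A by 0.37 ± 0.06.

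COMMD2, COMMD5 and COMMD1 were higher after knockdown, COMMD2 by the most. COMMD2 is found at bases 149738470 to 149752499 of chromosome 3 (minus strand). Its values were 39.1, 40.8 and 41.5 CPM in the controls and 61.9, 65.0 and 66.5 CPM after knockdown, with no overlap. COMMD2 rose 1.59-fold, by 0.67 ± 0.05 on the log2 scale (SE; edgeR adjusted p = 2.52e-10). COMMD2 was thus the only member that rose by a size comparable with the falls of COMMD4 and COMMD7, and none of its exonic bases overlaps another annotated gene.

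COMMD5, also known as HCARG and first described as a gene related to hypertension, lies on chromosome 8. It had 21.6, 21.7 and 22.9 CPM in the siGL2 libraries and 26.5, 23.9 and 25.5 CPM in the siLINC00152 libraries. COMMD5 rose 1.15-fold (log2 0.20 ± 0.06, SE; edgeR adjusted p = 0.00622), but with library size alone as the scale it stood at 0.13 and did not pass (adjusted p = 0.0604). On the opposite strand ZNF7 covers 13.3% of its exonic bases, and whether strand was used in counting is not stated in the labels.

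COMMD1 on chromosome 2 (61888724 to 62147247, plus strand) changed least among those past the threshold. CPM values of 13.1, 14.95 and 13.4 in siGL2 A, B and C stood beside 15.3, 15.6 and 15.9 in siLINC00152 A, B and C, so that the groups did not overlap but control B came just under knockdown library A. The log2 difference was 0.17 ± 0.07 (SE; edgeR adjusted p = 0.029). This call was lost with DESeq2 (adjusted p = 0.0783), with library size alone (0.175) and without siGL2 A (0.0889), siGL2 C (0.0917), siLINC00152 B (0.0654) or siLINC00152 C (0.0871). The pseudogene RPSAP26 covers 31.0% of the exonic bases of COMMD1 on its own strand, and CCT4 and AC018462.1 cover 13.9% on the other, but no base of its main transcript.

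COMMD6, COMMD9 and COMMD3 missed the threshold. COMMD6 encodes the shortest protein of the family, 85 amino acids against 183 to 224 in the other 9, and is known to lack the amino-terminal domain. Its CPM values were 56.5, 68.0 and 66.5 in the controls and 62.2, 61.2 and 59.5 after knockdown. All knockdown libraries fell between control A and the other controls. The log2 difference was −0.06 with a 95% confidence interval of −0.19 to 0.06 (edgeR adjusted p = 0.369). Without siGL2 A it was −0.14 ± 0.05 (SE) and passed (edgeR adjusted p = 0.00789), so control A decides this call.

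COMMD9, which is known to take part in the recycling of Notch receptors, was at 41.6, 46.9 and 45.7 CPM in siGL2 A, B and C and at 45.5, 48.4 and 49.4 CPM in siLINC00152 A, B and C. The ranges overlapped. Its log2 difference of 0.09 had an interval of −0.02 to 0.21 (edgeR adjusted p = 0.14).

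COMMD3 had 347 to 460 counts per library, the fewest of the family in the controls. It measured 7.995, 10.7 and 8.69 CPM in the controls and 9.20, 9.85 and 9.48 CPM after knockdown, and control B was above all the others. The log2 difference was 0.06 with an interval of −0.13 to 0.25 (edgeR adjusted p = 0.557), and it turned to −0.0185 without siGL2 A and to −0.0036 with library size alone. COMMD3 (chromosome 10, 22315974 to 22320308) shares its strand with COMMD3-BMI1, a read-through gene that joins it to BMI1 and covers 41.6% of the bases of its main transcript. In the count tables COMMD3-BMI1 stands at 0 in all 6 libraries, and BMI1, whose exons it also covers in part, at 75 to 151 counts. The labels do not say how reads in the shared exons were assigned, so the counts may understate COMMD3.

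**Figure D2:**
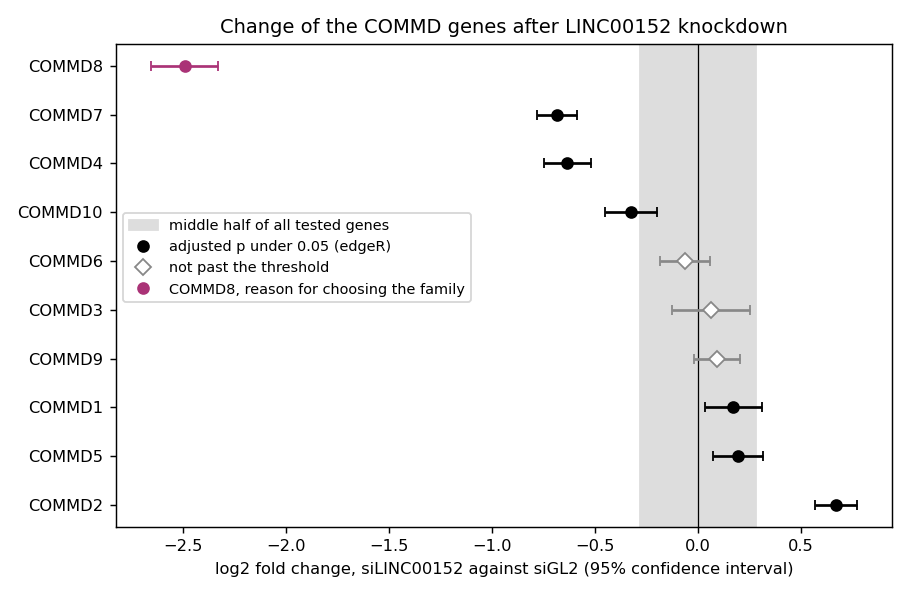
Log2 fold change of each COMMD gene, siLINC00152 against siGL2 (horizontal axis), with its 95% confidence interval, filled circles for genes with an edgeR adjusted p under 0.05 and open diamonds for the others, and a grey band for the central 50% of all tested genes. COMMD8 (purple) stands at −2.50, and the other members lie between −0.68 and 0.67. COMMD8 is drawn filled and with an interval from the same fit, but it chose the family, so its fill and interval are not read as a test.

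Levels of different genes can be compared only per length, here as CPM per kilobase of annotated exon. In the controls COMMD7 led with 45.9 ± 1.95 CPM per kilobase (SD, n = 3), followed by COMMD8 with 23.8 ± 2.56 and COMMD6 with 22.0 ± 2.15, and the ranges of COMMD8 and COMMD6 overlapped. COMMD10, COMMD4, COMMD2, COMMD5, COMMD9 and COMMD1 came next in this order, from 12.5 down to 5.78, and COMMD3 was last with 2.75 ± 0.415. Apart from COMMD8 and COMMD6, no neighbours in this order overlapped. After knockdown COMMD8 stood in place 9 of 10 with 4.23 ± 0.151, between COMMD1 and COMMD3, and COMMD2 moved from place 6 to place 3 with 13.2 ± 0.472. The ranges of COMMD9 and COMMD4, in places 6 and 7, overlapped there, and those of other neighbours did not. These places depend on the length used. COMMD4 took place 5 in the controls by the sum of its annotated exons (6779 bases) but place 1 by its main transcript (1067 bases). With the length of the longest transcript COMMD8 stood in place 3 in the controls and in place 9 after knockdown, and by main transcripts in places 4 and 10.

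**Figure D3:**
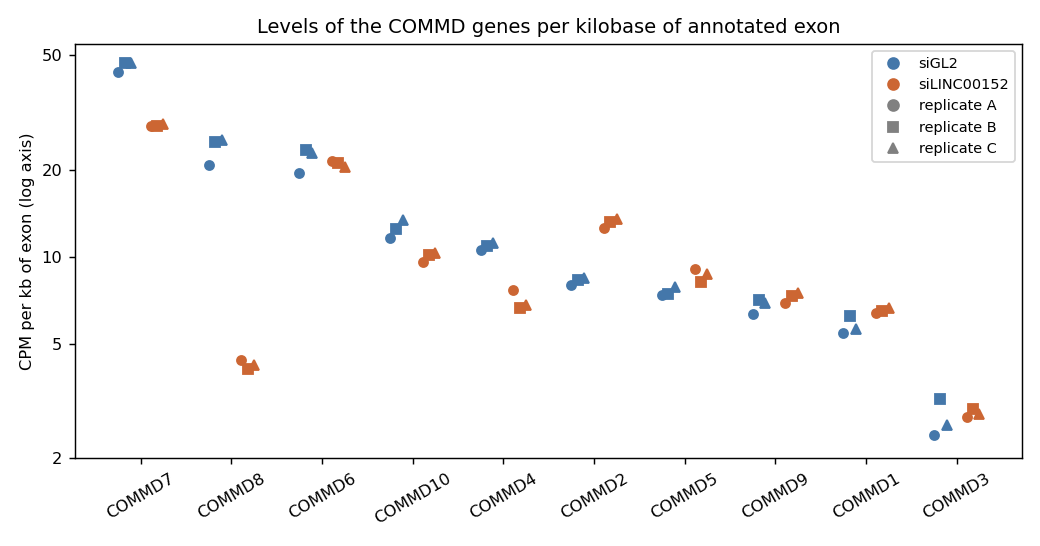
CPM per kilobase of annotated exon on a log axis for the 10 COMMD genes, ordered by their mean in the siGL2 libraries (blue), with the siLINC00152 libraries in orange and a marker for each replicate letter. COMMD8 stood in place 2 of the controls, at 20.9 to 25.5, and at 4.08 to 4.38 after knockdown.

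The summed RNA of the family includes COMMD8, whose fall chose the family, so its values are a description. Over the 10 genes it was 430, 474 and 474 CPM in siGL2 A, B and C and 378, 375 and 379.6 CPM in siLINC00152 A, B and C, or 459 ± 25.7 against 377 ± 2.33 CPM (SD, n = 3). The controls varied more than the knockdown libraries. Without COMMD8 the sums were 417 ± 21.2 and 369.9 ± 2.21 CPM. Sums are weighted toward abundant members such as COMMD7, with means of 118.7 CPM in the controls and 73.9 CPM after knockdown. They are not read as a change shared by the members, since COMMD7 fell (log2 −0.68) and COMMD2 rose (log2 0.67). COMMD8 supplied 9.14% ± 0.494 of the family's counts in the controls and 1.98% ± 0.0658 after knockdown (SD, n = 3).

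The other subunits of Commander did not share the size of the COMMD8 fall. Of 6 such genes 3 fell, 1 rose and 2 missed the threshold (median log2 change −0.17, beside −0.0011 over all genes tested). The share of calls was near the 64.3% of all tested genes, so nothing is read from the count. VPS35L, the largest Retriever subunit (C16orf62 in the tables), fell by 0.37 ± 0.05 (SE; edgeR adjusted p = 1.11e-06), from 65.9 ± 2.21 to 50.8 ± 1.77 CPM (SD, n = 3). VPS29, which Retriever shares with the retromer, fell by the same 0.37 ± 0.06 (SE; edgeR adjusted p = 6.15e-06). VPS26C (DSCR3 in the tables), the arrestin-like subunit, went the other way and rose by 0.40 ± 0.05 (SE; edgeR adjusted p = 1.66e-07), with 69.4, 67.9 and 66.6 CPM in siGL2 A, B and C against 92.1, 89.7 and 87.7 CPM in siLINC00152 A, B and C. Its groups were thus well apart. CCDC22, the scaffold that the COMMD ring clasps, had 20.9, 19.2 and 20.02 CPM in the controls and 18.3, 16.1 and 16.5 CPM after knockdown. It fell by 0.24 ± 0.06 (SE; edgeR adjusted p = 0.00248). CCDC93 (−0.09 ± 0.05) and DENND10 (−0.08 ± 0.07; FAM45A in the tables) did not pass. Of the 75-base stretches of DENND10, 15.2% occur in other genes, and 17.2% of the exonic bases of VPS35L lie opposite exons of KNOP1.

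Genes of the endosomal machinery around Commander had changes inside and outside the central 50% of all tested genes (log2 −0.283 to 0.2826). In the list of the WASH complex and capping protein, 5 of 9 genes rose, 1 fell and 3 missed the threshold, a share of calls near the 64.3% of all tested genes (median log2 change 0.14 beside −0.0011). WASHC4 (KIAA1033 in the tables), a scaffold subunit of WASH, rose by 0.49 ± 0.05 (SE; edgeR adjusted p = 3.4e-08) and CAPZB, a capping protein subunit, by 0.34 ± 0.04 (edgeR adjusted p = 4.3e-07). WASHC2C (FAM21C in the tables) rose by 0.21 ± 0.05, but 50.5% of its 75-base stretches are found in WASHC2A or FAM21FP too. CAPZA1 fell by 0.15 ± 0.05, and ST7L covers 15.1% of its exonic bases and 20.66% of its main transcript on the opposite strand. Without siGL2 B or without siLINC00152 C 3 genes of this list rose, and without siLINC00152 A none fell.

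Among 11 tested genes of the retromer and endosomal sorting nexins, 4 rose, 6 fell and 1 missed the threshold, where 32.2% of all tested genes passed in each direction (median log2 change −0.12 beside −0.0011). The sorting nexin genes SNX5 and SNX3 fell by 0.56 ± 0.05 (SE; edgeR adjusted p = 1.29e-09) and 0.41 ± 0.05 (edgeR adjusted p = 7.03e-07), and the retromer gene VPS26B fell by 0.35 ± 0.05 (edgeR adjusted p = 4.39e-06). SNX1, which pairs with SNX5 on endosomal tubules, rose by 0.25 ± 0.04 (edgeR adjusted p = 5.67e-05). SNX17, the cargo adaptor of Commander, was among those that fell, at −0.12 ± 0.05 (edgeR adjusted p = 0.0239), a call lost without siGL2 B, siGL2 C, siLINC00152 B or siLINC00152 C. With library size alone, where the median over all tested genes was −0.0683, 1 gene of this list rose, and without siLINC00152 B 2 did.

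Genes for receptors and transporters that Commander or SNX17 returns to the surface were higher or did not pass. Of 8 tested, 6 rose and none fell, beside 32.2% in each direction among all genes tested, and the median was 0.35 beside −0.0011. The list was drawn up with earlier results of these data known, so this share is a description and nothing is read from it. The integrin subunit gene ITGB1 did not pass (−0.04 ± 0.05, SE, edgeR adjusted p = 0.452). With library size alone, where the median over all tested genes was −0.0683, 1 of them, ITGB1, fell. ITGA5, which encodes the fibronectin receptor subunit alpha 5, rose the most, by 1.61 ± 0.05 (SE; edgeR adjusted p = 7.82e-17), from 971.5 ± 32.4 to 2956 ± 101 CPM (SD, n = 3). NOTCH2 rose by 0.49 ± 0.06 (SE; edgeR adjusted p = 6.01e-06), with 20.04% of its 75-base stretches also in NBPF19 or NOTCH2NLA. The amyloid precursor gene APP rose by 0.26 ± 0.04 (SE; edgeR adjusted p = 2.67e-05). Surface levels of these proteins were not measured here.

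Pathways tied to COMMD1 held genes that rose and genes that fell, in numbers near the background. Of 20 NF-kB and cullin genes 7 rose, 5 fell and 8 missed the threshold, beside 64.3% called among all tested genes (median log2 change 0.01). The NF-kB genes NFKB2 (0.65 ± 0.06, SE), RELB (0.46 ± 0.09) and RELA (0.22 ± 0.05) rose, whereas CUL4B, a cullin of ubiquitin ligases, fell by 0.59 ± 0.05. For these 4 genes the edgeR adjusted p was at most 2.71e-04. Without siGL2 C or without siLINC00152 A 3 genes of this list fell. Of 8 genes of copper handling 3 rose and 3 fell, against 32.2% each way over all tested genes, with a median of 0.18. The 3 that rose were SLC31A1 (0.50 ± 0.05, SE, edgeR adjusted p = 7.63e-09), SLC31A2 (0.40 ± 0.06) and ATP7A (0.34 ± 0.06, edgeR adjusted p = 3.33e-05). ATP7A is also counted in the list of receptors and transporters above. FKBP15 covers 63.1% of the exonic bases of SLC31A2 on the opposite strand, and 88.46% of the bases of its main transcript. ATP7B, of the same list, did not pass (0.24 ± 0.17, SE, edgeR adjusted p = 0.238). The 3 that fell were the copper chaperone genes ATOX1 and COX17 and SOD1, by 0.18 ± 0.06, 0.23 ± 0.08 and 0.15 ± 0.05, with ranges that overlapped between the groups, and without siGL2 B or without siLINC00152 B none of them passed. POPDC2 covers 17.6% of the exonic bases of COX17 on the same strand.

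**Figure D4:**
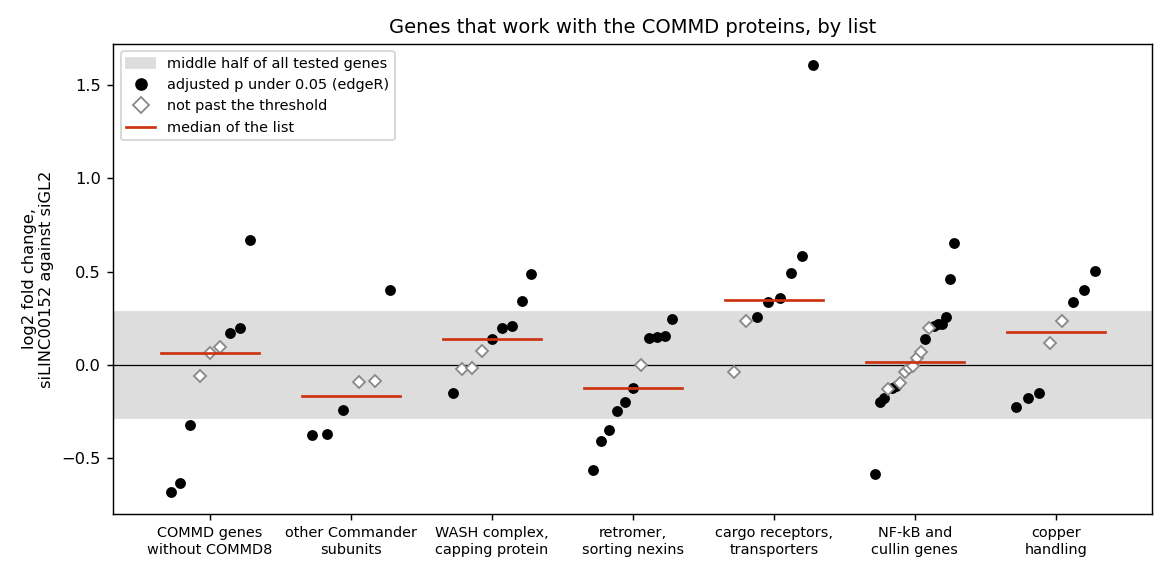
Log2 fold change, siLINC00152 against siGL2 (vertical axis), of each tested gene in the COMMD family without COMMD8 and in 6 lists of related genes, filled where the edgeR adjusted p was under 0.05, with a red line at the median of each list and a grey band for the central 50% of all tested genes. The list of cargo receptors and transporters has a median of 0.35 and ITGA5 at 1.61, and the COMMD genes a median of 0.06.

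The genes most like COMMD8 across the 6 libraries were sought among 9229 tested genes whose mean reached 10 CPM, by the root mean square distance between log2 CPM profiles centred on their own means. Among the closest were PLEKHA3 (distance 0.13), HAS1 (0.15), YWHAH (0.20) and PLEKHG4B (0.23). The profile of COMMD8 is mostly its fall between the groups, so the search picks genes with a like fall. These 4 had log2 fold changes between −2.80 and −2.12, beside −2.50 for COMMD8, a likeness that was fixed by the search. In level they ranged from 23.4 CPM in the controls (PLEKHG4B) to 189 CPM (YWHAH), against 42.1 CPM for COMMD8.

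The 3′ UTRs of the members were searched for 4 words of 7 bases that had been picked from these same fold changes, so that their presence is a description. The words were GTGTGTC, then TGAAAGA, then TGTGTCA, and also CTGAAAG, which overlaps TGAAAGA. Of 12344 tested genes with an annotated 3′ UTR, 38.2% held at least 1 of them on the strand of the transcript. Among the members 4 of 10 did, COMMD2, COMMD3, COMMD7 and COMMD8. The sites are shown with the word or overlapping words in capitals, and any part of them in the changes was not tested.
COMMD8, base 200 of 849 of the 3′ UTR: gcataaaaTGAAAGAtgaaaaatctat
COMMD7, base 168 of 691: attaagtaCTGAAAGAgcccaacacaa
COMMD3, base 252 of 310: caagtcttCTGAAAGgaagtagacagt
COMMD2, base 2525 of 3051: ccaatataTGTGTCAcaaagtctacat
COMMD8 held 1 site, of TGAAAGA. Among 1778 genes with a 3′ UTR within 25% of its length, 25.1% held any of the words and 9.17% held TGAAAGA. COMMD2, which rose, held 1 site of another word, TGTGTCA. COMMD7, which fell, held 1 site, and COMMD4 and COMMD10, which also fell, held none. No sequence of the siRNAs was used here.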

How the data were processed

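The deposited tables hold whole-number counts per gene symbol, 1 table per library, not normalized. The submitters' processing notes name bcl2fastq, HISAT, HTSeq, DESeq and the build hg38, without versions. Which annotation and strand setting were used, and how ambiguous reads were treated, is not given in sources used here. Libraries were grouped by their titles. filterByExpr (at least 10 counts, total at least 15) left 14078 of 27192 genes, which were scaled by TMM and tested by quasi-likelihood in edgeR with robust dispersions over all 6 libraries without covariates (R 4.3.3, edgeR 4.0.16, limma 3.58.1), with Benjamini-Hochberg adjustment over all tested genes, two-sided. The standard error is the log2 fold change divided by the square root of F. CPM are TMM-scaled, and 3 counts equal 0.0634 to 0.073 CPM, which covers counting error only.

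DESeq2 1.42.0 and other alternatives are described in the closing section. The code was tested on simulated data. The members, gene lists and motifs were chosen with earlier results of these data known. Named genes are all members, every other Commander subunit, up to 4 genes per list with the smallest p, and the 5 nearest profiles to COMMD8. SNX17, ITGB1, COX17, SOD1, ATP7B and MIR4435-2HG were named outside this rule after their values were seen. Certain genes picked by it are not reported here. Positions, lengths, overlaps and transcripts come from GENCODE release 29 (GRCh38), in which all 10 members were matched. The main transcript is the best APPRIS principal one, or the longest among equals. Python 3.11.15, pandas 2.3.3 and matplotlib 3.10.9 were used.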

Additional observations from a re-analysis of the deposited data

How the results depend on the processing

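All 10 members were recomputed under 12 alternatives. COMMD2, COMMD4, COMMD7 and COMMD10 kept their direction and side of the threshold in each, and COMMD8 stayed between −2.58 and −2.44 (log2). COMMD3 reached 0.1851 without siGL2 B and reversed to −0.0036 with library size alone and to −0.0185 without siGL2 A. Library size alone moved the median log2 fold change over all tested genes to −0.0683. It left 1 of 9 other members, 3 WASH and capping protein genes and 1 retromer or sorting nexin gene higher. In the cargo list 1 gene was lower. No other scaling, filter or test moved a list's count by over 1.5 times. Leaving out 1 library at a time gave 2 to 3 of the 9 members higher and 3 to 4 lower, 3 to 4 WASH and capping protein genes higher and 0 to 1 lower, 2 to 4 retromer or sorting nexin genes higher, 3 to 6 NF-kB and cullin genes lower and 0 to 3 copper genes lower. The share of all tested genes called in each of these settings is not set beside the counts, here or above. The counts are therefore not read as traits of the members or lists. With the longest transcript as length, COMMD8 took place 3 in the controls in place of 2. By main transcripts, a length chosen after seeing the data, it took place 4 in the controls and place 10 after knockdown, in place of 2 and 9. The cause of these shifts was not tested. The letters A, B and C share no stated batch, so the libraries were not taken as pairs. Deviations of same-lettered libraries correlated at 0.109 (A), −0.02 (B) and 0.104 (C), beside −0.15 to 0.061 for different letters. The values for A and C lie above that range and the value for B inside it, so they do not decide whether the letters were paired. With the letter as a replicate block, 4571 genes were higher and 4584 lower, beside 4529 and 4529, and the members' calls were 3 higher and 3 lower, as without it. The lowest count of any member in a library was 303, for COMMD8 in siLINC00152 B, and COMMD3 had the fewest in the controls, from 347, which limits precision there.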
